A study of Homo sapiens with 4 samples.

Results

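The chemokines described here were CXCL1, CXCL2, CXCL3, CXCL5, CXCL6 and CXCL8, the genes of one cluster on chromosome 4 whose proteins attract neutrophils. They were chosen by name, as the rows of the 4 count files whose Ensembl identifier carries one of these symbols in GENCODE release 29, which gave 6 of 57500 genes. RNA was sequenced from parental SUM159 cells, a triple-negative breast cancer line of metaplastic type given as the parental control, and from NOS2KO SUM159 clones 1, 5 and 6, with 1 library each. The NOS2KO clones came from SUM159 cells given the NOS2 Double Nickase Plasmid, selected in puromycin and picked by iNOS immunoblot and by a colorimetric assay of nitrite and nitrate. All cells grew in DMEM with FBS and an antibiotic-antimycotic reagent, and the labels name no cytokine or other stimulus. Each NOS2KO library is 1 clone grown out after transfection and selection, the parental cells are not described as having gone through either, and loss of NOS2, clonal origin and selection cannot be told apart. Parental cells and clones alike carry whatever else distinguishes the SUM159 line.

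CXC chemokines are small secreted proteins, and those whose first cysteine follows the residues Glu-Leu-Arg (the ELR motif) bind CXCR1 and CXCR2 on neutrophils and draw them into tissue. In epithelial tumour cells they are known as rapid targets of IL-1, TNF and Toll-like receptor signals through NF-kappaB, with C/EBP and AP-1 factors acting at some of the promoters, and their mRNAs are short-lived. CXCL8 is interleukin-8, CXCL1, CXCL2 and CXCL3 are the closely related GRO chemokines, CXCL5 is ENA-78 and CXCL6 is GCP-2.

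The sequences below show what ties the genes together and where they differ. The promoter letters are those of RefSeq on GRCh38.p14, which matched all 6 genes by symbol, and cover the 140 bases before the RefSeq start of each gene, 5′ to 3′ on the gene's own strand. In CXCL2, CXCL3, CXCL5 and CXCL8 the gene as GENCODE annotates it begins inside the printed bases, in CXCL6 upstream of all of them, and in CXCL1 just after the last. Capitals mark GGAATTTCC, a site of the NF-kappaB type.
CXCL8 (chr4:73740429-73740568, + strand): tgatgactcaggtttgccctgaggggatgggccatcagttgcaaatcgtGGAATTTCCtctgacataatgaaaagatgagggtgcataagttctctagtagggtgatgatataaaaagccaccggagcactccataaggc
CXCL6 (chr4:73836538-73836677, + strand): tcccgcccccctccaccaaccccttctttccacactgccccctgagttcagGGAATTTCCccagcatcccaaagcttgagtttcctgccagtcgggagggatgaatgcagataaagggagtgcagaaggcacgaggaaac
CXCL1 (chr4:73869253-73869392, + strand): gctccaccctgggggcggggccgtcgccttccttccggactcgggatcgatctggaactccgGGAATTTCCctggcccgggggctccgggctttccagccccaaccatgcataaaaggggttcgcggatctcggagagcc
CXCL5 (chr4:73998678-73998817, - strand): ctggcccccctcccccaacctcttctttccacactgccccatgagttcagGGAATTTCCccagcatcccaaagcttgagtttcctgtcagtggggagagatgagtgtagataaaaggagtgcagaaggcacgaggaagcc
CXCL3 (chr4:74038690-74038829, - strand): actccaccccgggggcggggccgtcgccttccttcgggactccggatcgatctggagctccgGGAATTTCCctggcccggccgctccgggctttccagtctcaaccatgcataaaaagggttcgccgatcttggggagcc
CXCL2 (chr4:74099196-74099335, - strand): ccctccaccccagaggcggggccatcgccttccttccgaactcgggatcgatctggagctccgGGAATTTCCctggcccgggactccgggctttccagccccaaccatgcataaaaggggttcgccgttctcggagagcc
Each of the 6 windows held GGAATTTCC on the strand of the gene, with its first base 91 bases before the start in CXCL8, 90 in CXCL5, 89 in CXCL6, 78 in CXCL1 and CXCL3 and 77 in CXCL2. Over 35116 windows of 27305 genes, each from 250 bases before to 50 after a start, 0.461% held these letters on either strand and 0.253% on the strand of the gene. GGAATTTCC was chosen as the site form shared in this family, so its presence in all 6 genes was fixed by that choice. Nor are the 6 windows independent, since those of CXCL1, CXCL2 and CXCL3 are near copies, as are those of CXCL5 and CXCL6. The longer kappaB consensus, which overlaps that site, was found in 5 of the 6 genes, all but CXCL8, and in 5.91% of all windows. The AP-1 letters TGANTCA, which read alike on both strands, occurred among the 6 genes in CXCL8 alone, 137 bases before its start, and in 7.71% of all windows. The C/EBP letters TTGCNNAA occurred among the 6 genes in CXCL2 alone, on the opposite strand 188 bases before the start, and in 10.5% of all windows. The letters TATAAA occurred among the 6 genes in CXCL8 alone, 31 bases before the start, and in 11.5% of all windows. Only exact matches were counted, so a stretch that misses a pattern by a single letter, such as ttgcaaat in CXCL8 for C/EBP, is left out. A match of letters is a description of the sequence, and binding was not measured.

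The promoters fall into family groups. Within the printed 140 bases, CXCL1 was 91.5% identical to CXCL2 and 90.7% to CXCL3, CXCL2 and CXCL3 were 87.9% identical, and CXCL5 was 90.1% identical to CXCL6. CXCL8 stood apart, with an identity of 40.8% to 46.2% to each of the other 5. The coding sequences of the GENCODE transcripts on GRCh38 grouped in the same way. CXCL1, CXCL2 and CXCL3, each with a coding length of 321 bases without the stop codon, were 90.7% to 94.4% identical. CXCL5 and CXCL6, each of 342 bases, were 87.4% identical, and CXCL8, of 297 bases, was 48.6% to 54.1% identical to the others. The codons for Glu-Leu-Arg, in capitals, lie in exon 2 of 4 in all 6 genes, and the stretch of 24 coding bases around them is printed because it is the motif by which the receptors recognise these ligands.
CXCL8 (chr4:73741565-73741588, + strand): aaaGAACTTAGAtgtcagtgcata
CXCL1 (chr4:73869683-73869706, + strand): actGAACTGCGCtgccagtgcttg
CXCL5 (chr4:73998292-73998315, - strand): agaGAGCTGCGTtgcgtttgttta
CXCL6 (chr4:73836987-73837010, + strand): acaGAGCTGCGTtgcacttgttta
CXCL2 (chr4:74098885-74098908, - strand) and CXCL3 (chr4:74038376-74038399, - strand) carry the same 24 letters as CXCL1. Such likeness could split reads between genes. No window of 150 bases, the read length, in the principal transcript of any of the 6 genes recurred in a transcript of another gene. Of windows of 50 bases, 5.73% in CXCL1, 9.24% in CXCL2 and 5.26% in CXCL3 recurred in another of these 3 genes, and none did in CXCL8.

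Counts per gene were scaled to CPM, the counts per 1000000 of the library size after TMM, a factor per library that sets most genes level. The libraries held 90467395 to 122171287 counts on genes, which puts the floor of 3 counts at 0.0262 to 0.0332 CPM. NOS2 (ENSG00000007171, chr17:27756766-27800499 on the - strand of GRCh38) was covered by 2 counts in parental cells, 3 in NOS2KO clone 1, 18 in the library with the clone 5 label and 1 in NOS2KO clone 6. It was near the floor in the parental cells and highest in a library labelled NOS2KO, so that library is called the library labelled clone 5 throughout. VIM, CD44, EGFR and KRT18, which SUM159 cells are known to express, were each above 100 CPM in all 4 libraries. PGR had at most 3 counts and ESR1 at most 0.741 CPM, while the luminal factor GATA3 had 1.61 to 10.5 CPM and FOXA1, another, had 2.69 CPM in the parental library and 4.62, 24.1 and 22.1 CPM in NOS2KO clone 1, the library labelled clone 5 and clone 6. RNA came from whole cultures, so fewer cells expressing a gene and less of its RNA per cell cannot be told apart.

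CXCL8 was the most abundant of the chemokines in parental cells and, outside clone 1, the one furthest below its parental level. CXCL8 (ENSG00000169429, chr4:73740506-73743716 on the + strand of GRCh38) stood at 257 CPM in the parental library, 43.8 CPM in NOS2KO clone 1, 2.55 CPM in the library labelled clone 5 and 1.68 CPM in NOS2KO clone 6. Each NOS2KO library was below the parental library, and clone 1 was far above the other 2. Against the parental library CXCL8 was 5.87-fold lower in NOS2KO clone 1, 101-fold lower in the library labelled clone 5 and 153-fold lower in NOS2KO clone 6. The log2 ratios were -2.55 (exact 95% interval -2.60 to -2.51), -6.65 (-6.83 to -6.48) and -7.25 (-7.48 to -7.03). These intervals, and all others given here, cover counting error only.

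CXCL2 (ENSG00000081041, chromosome 4 from 74097035 to 74099293, - strand), also called GRO-beta, had 130 CPM in the parental library, 45.4 CPM in NOS2KO clone 1, 5.46 CPM in the library labelled clone 5 and 7.49 CPM in NOS2KO clone 6. The order of parental cells, clone 1 and the other NOS2KO libraries was that of CXCL8, with a smaller gap. CXCL2 was 2.87-fold lower in NOS2KO clone 1 (log2 ratio -1.52, interval -1.57 to -1.47), 23.9-fold lower in the library labelled clone 5 (-4.58, -4.70 to -4.46) and 17.4-fold lower in NOS2KO clone 6 (-4.12, -4.23 to -4.02).

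CXCL3 (ENSG00000163734, chromosome 4 from 74036589 to 74038807, - strand), GRO-gamma, had 44.7 CPM in the parental library, 5.06 CPM in NOS2KO clone 1, 1.81 CPM in the library labelled clone 5 and 2.36 CPM in NOS2KO clone 6. Here, on the log2 scale, clone 1 lay nearer to the other NOS2KO libraries than to the parental library. CXCL3 was 8.84-fold lower in NOS2KO clone 1 (log2 ratio -3.14, interval -3.27 to -3.02), 24.7-fold lower in the library labelled clone 5 (-4.63, -4.84 to -4.42) and 18.9-fold lower in NOS2KO clone 6 (-4.24, -4.44 to -4.05).

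CXCL1 (ENSG00000163739, chromosome 4 from 73869393 to 73871242, + strand), GRO-alpha, had 8.95 CPM in the parental library, 0.419 CPM in NOS2KO clone 1, 0.460 CPM in the library labelled clone 5 and 0.314 CPM in NOS2KO clone 6, from 809, 48, 49 and 31 counts. The NOS2KO libraries lay close together, all far below the parental library. CXCL1 was 21.4-fold lower in NOS2KO clone 1 (log2 ratio -4.42, interval -4.87 to -3.998), 19.5-fold lower in the library labelled clone 5 (-4.28, -4.73 to -3.87) and 28.5-fold lower in NOS2KO clone 6 (-4.83, -5.40 to -4.31).

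CXCL5 (ENSG00000163735, chromosome 4 from 73995642 to 73998779, - strand) had 1 count in NOS2KO clone 1 and 0 in the other 3 libraries, and CXCL6 (ENSG00000124875, chromosome 4 from 73836497 to 73849064, + strand) had 0 in all 4. A count of 0 allows up to 0.0262 to 0.0332 CPM in these libraries, so both were at or under the floor and no ratio is given. The promoters of CXCL5 and CXCL6 printed above hold the same 9 letters as those of the 4 genes with counts.

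**Figure D1:**
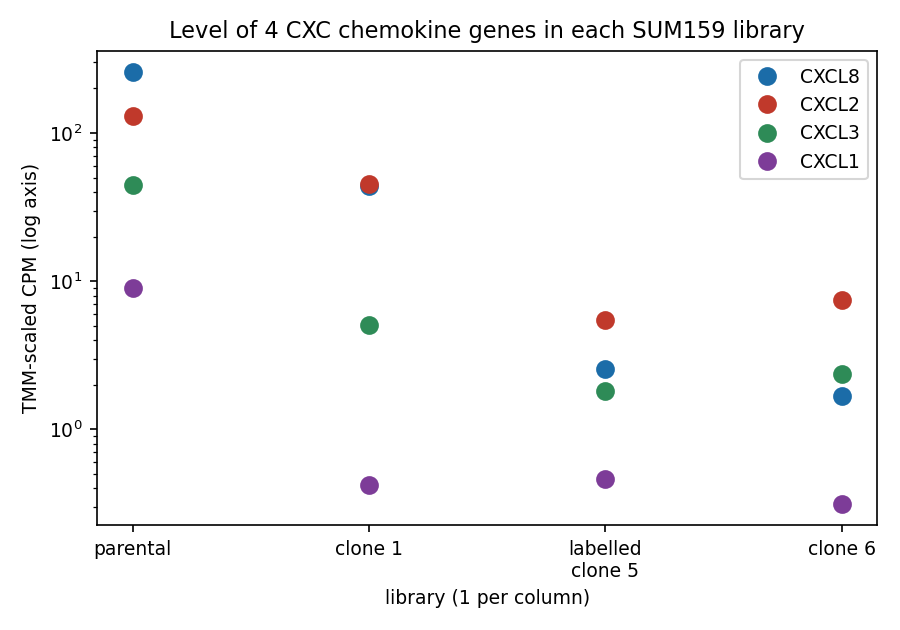
TMM-scaled CPM (log axis) of CXCL8, CXCL2, CXCL3 and CXCL1 in the parental library and in each NOS2KO library, 1 point per gene and library with no replicate. All 4 genes are highest in the parental library, CXCL8 spans 257 to 1.68 CPM, and CXCL5 and CXCL6, at 1 count or fewer, are not drawn.

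The NOS2KO libraries differed from each other beyond counting error for 3 of the 4 genes. For CXCL1, with 48, 49 and 31 counts, the wider intervals included 0. With 1 library per clone, differences between clones and between cultures of a clone cannot be told apart. CXCL8 in NOS2KO clone 1 was 17.2-fold above the library labelled clone 5 (log2 difference 4.10, interval 3.92 to 4.28) and 26.0-fold above clone 6 (4.70, 4.48 to 4.93). CXCL2 in NOS2KO clone 1 was 8.32-fold above the library labelled clone 5 and 6.07-fold above clone 6, and for CXCL3 these folds were 2.79 and 2.14. For CXCL1 the log2 difference of clone 1 from the library labelled clone 5 was -0.14 (interval -0.74 to 0.47) and from clone 6 it was 0.41 (-0.27 to 1.11), both including 0. Between the library labelled clone 5 and clone 6 the log2 differences were 0.60 (0.32 to 0.89) for CXCL8, -0.46 (-0.61 to -0.30) for CXCL2, -0.38 (-0.67 to -0.10) for CXCL3 and 0.55 (-0.13 to 1.25) for CXCL1. The standard deviation of the 3 log2 ratios to the parental library was 0.285 for CXCL1, 0.769 for CXCL3, 1.65 for CXCL2 and 2.56 for CXCL8 (n = 3).

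**Figure D2:**
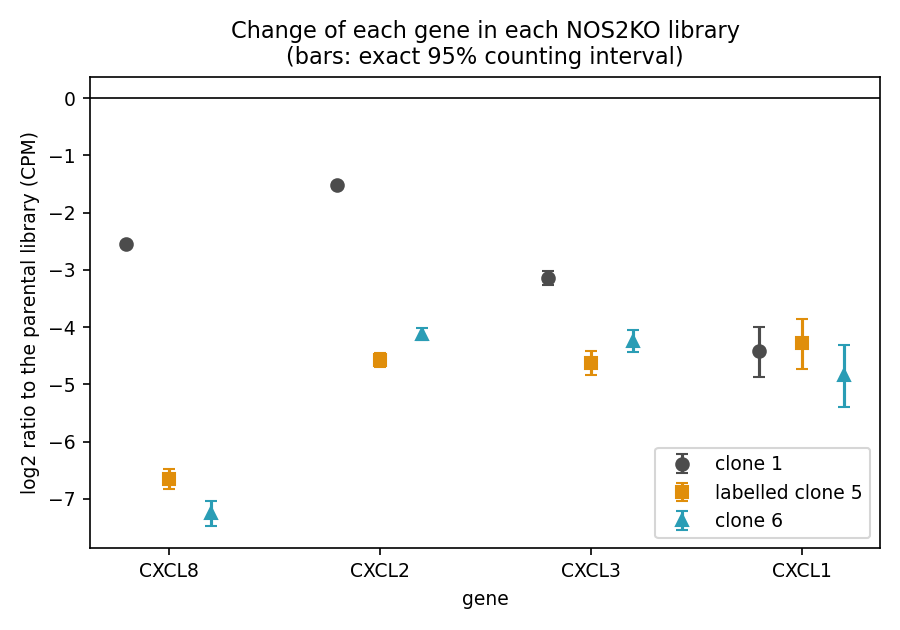
log2 ratio of CPM in each NOS2KO library to the parental library for 4 chemokine genes, with exact 95% counting intervals as bars, some smaller than the symbol. The 3 symbols sit together for CXCL1, between -4.83 and -4.28, and are spread furthest for CXCL8, where clone 1 is at -2.55 and clone 6 at -7.25.

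Taken over the clones as a group, CXCL8 averaged 16.0 ± 24.0 CPM (SD, n = 3), CXCL2 19.5 ± 22.5, CXCL3 3.08 ± 1.74 and CXCL1 0.398 ± 0.0749. The NOS2KO libraries were compared with the parental library by edgeR's quasi-likelihood test over 22511 genes, in which the spread comes from the clones alone. The log2 fold change was -4.49 for CXCL1 (standard error 0.54, unadjusted p = 0.000361, Benjamini-Hochberg adjusted p = 0.259 by edgeR). For CXCL3 it was -3.86 (standard error 0.67, unadjusted p = 0.00176, adjusted p = 0.275 by edgeR). For CXCL8 it was -4.01 (standard error 1.90, unadjusted p = 0.0720, adjusted p = 0.469 by edgeR) and for CXCL2 -2.74 (standard error 1.29, unadjusted p = 0.0693, adjusted p = 0.465 by edgeR). CXCL1, the least abundant of the 4, had the smallest p, and CXCL8, with the lowest levels relative to parental cells in 2 libraries, did not pass even the unadjusted threshold of 0.05.

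By edgeR's adjusted p under 0.05, 0 of the 6 chemokines were called, against 0.00444% of all genes called lower, which was the single gene INHBE. By an unadjusted edgeR p under 0.05 with a log2 fold change below -1, 2 of the 6 were called lower, CXCL1 and CXCL3, against 5.34% of all genes. DESeq2's Wald test at an adjusted p under 0.05 called the same 2 lower, against 2.19% of all genes, with an adjusted p of 8.70e-12 for CXCL1, 5.04e-05 for CXCL3, 0.234 for CXCL2 and 0.512 for CXCL8. Without clone 1, edgeR's log2 fold change was -6.92 for CXCL8 and -4.33 for CXCL2. These values were -3.49 and -2.29 without the library labelled clone 5, and -3.47 and -2.35 without clone 6. With 1 library set against 3, the smallest p of an exact permutation test is 0.25. Over the 4 genes tested the median log2 fold change was -3.93, beside 0.10 over all genes tested.

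A plain count of libraries gave the same direction throughout. Of the 6 chemokines, 4 reached 1 CPM somewhere, and these 4 were more than 1 log2 unit below the parental library in each NOS2KO library. Of all genes that reached 1 CPM, 16.3% were that much lower in NOS2KO clone 1, 13.4% in the library with the clone 5 label, 14.1% in NOS2KO clone 6 and 5.93% in all 3. CXCL1 did so in the parental library only and so could enter that count only as lower.

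Per exon length, the order of the chemokines themselves changed. In the parental library the level was 113 CPM per kb for CXCL8, 86.9 for CXCL2, 20.1 for CXCL3 and 6.91 for CXCL1. In clone 1 CXCL2 led with 30.3 CPM per kb, followed by CXCL8 with 19.2, CXCL3 with 2.28 and CXCL1 with 0.323. In the library labelled clone 5 the levels were 3.64 CPM per kb for CXCL2, 1.12 for CXCL8, 0.816 for CXCL3 and 0.355 for CXCL1. In clone 6 they were 4.99 for CXCL2, 1.07 for CXCL3, 0.740 for CXCL8 and 0.243 for CXCL1, which put CXCL8 in the third place. In each library the 95% interval of the ratio between neighbours in this order left out equality. The intervals do not cover the choice of length, which here is that of all annotated exons of a gene (2274 bases for CXCL8 and 2219 for CXCL3). With the principal GENCODE transcripts (1705 and 1075 bases), a choice made after seeing the data, CXCL3 stood at 1.684 and CXCL8 at 1.497 CPM per kb in the library labelled clone 5, with a log2 ratio of CXCL8 to CXCL3 of -0.17 (interval -0.44 to 0.10) in place of 0.46 (0.19 to 0.73). The order of these 2 genes in that library is therefore not settled, and the order in the other 3 libraries was the same with either length.

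The ratio of CXCL8 to CXCL2 carries this change and does not depend on the scaling of libraries. Per length, its log2 value was 0.38 (interval 0.35 to 0.41) in the parental library, -0.65 (-0.71 to -0.60) in NOS2KO clone 1, -1.70 (-1.91 to -1.49) in the library labelled clone 5 and -2.75 (-3.004 to -2.51) in NOS2KO clone 6. CXCL2 to CXCL3 stood at 2.11 in the parental library, 3.73 in NOS2KO clone 1, 2.16 in the library with the clone 5 label and 2.23 in NOS2KO clone 6, so clone 1 was the library that differed. The 6 genes together came to 227 CPM per kb in the parental library, 52.1 in NOS2KO clone 1, 5.93 in the library with the clone 5 label and 7.04 in NOS2KO clone 6. CXCL8 made up 49.8% of that sum in the parental library, 36.9% in NOS2KO clone 1, 18.9% in the library with the clone 5 label and 10.5% in NOS2KO clone 6, and CXCL2 38.3%, 58.1%, 61.4% and 70.9%. Among protein-coding genes with counts, CXCL8 ranked 295 of 16733 per length in the parental library, 2509 of 16627 in NOS2KO clone 1, 10564 of 17225 in the library labelled clone 5 and 11115 of 16652 in NOS2KO clone 6.

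**Figure D3:**
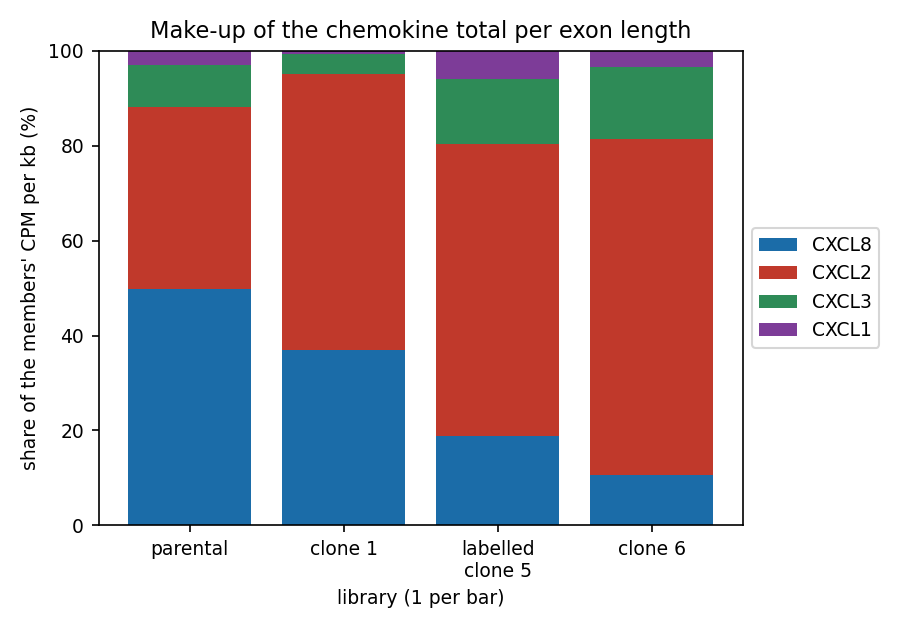
Share (%) of each gene in the summed CPM per kb of the chemokines, 1 bar per library. The CXCL8 share is 49.8% in the parental library and 10.5% in NOS2KO clone 6, while the CXCL2 share is 38.3% and 70.9%, and the sums behind the bars are 227, 52.1, 5.93 and 7.04 CPM per kb from left to right.

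The genes around the cluster were examined next, because the chemokines lie side by side. The 6 genes span 359 kb, and the span with 1 Mb on either side holds 45 annotated genes, of which 13 protein-coding genes had at least 10 counts in a library. Inside the span itself, 4 of 16 genes reached 10 counts, and those were the 4 chemokines. Of the 9 other protein-coding genes, EREG and AREG were more than 1 log2 unit lower in each NOS2KO library, and AFP was more than 1 log2 unit higher. Of all protein-coding genes with at least 10 counts in a library, 6.12% were that much lower in all 3 and 5.47% that much higher. EREG, which encodes the EGFR ligand epiregulin, had 159 CPM in the parental library, 34.4 CPM in NOS2KO clone 1, 7.47 CPM in the library labelled clone 5 and 6.23 CPM in NOS2KO clone 6. AREG, which encodes the EGFR ligand amphiregulin, had 13.3, 0.785, 0.253 and 0.132 CPM in the same order. The log2 fold change by edgeR was -3.31 for EREG (unadjusted p = 0.0211, adjusted p = 0.357) and -5.09 for AREG (unadjusted p = 0.00413, adjusted p = 0.306), and DESeq2's adjusted p was 0.0462 and 0.000214.

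MTHFD2L, a mitochondrial folate enzyme whose gene lies between CXCL2 and EREG, had log2 ratios of 0.36, -1.04 and -0.58 in NOS2KO clone 1, the library labelled clone 5 and clone 6. On the other side of CXCL8, AFP, which encodes alpha-fetoprotein, had 13 counts in the parental library and 156, 64 and 58 in the NOS2KO libraries. COX18 and ANKRD17, at the far end of the window, had log2 ratios of -0.36 to 0.02. RASSF6, BTC and PARM1 had 6 to 301 counts and log2 ratios of both signs.

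**Figure D4:**
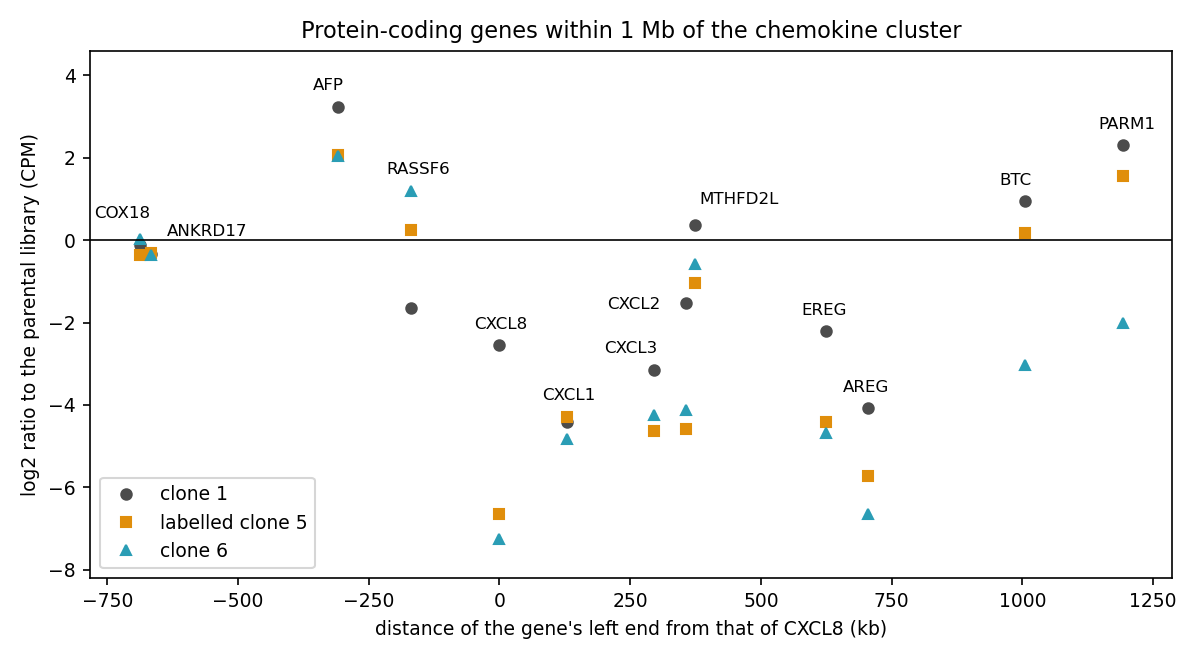
log2 ratio of CPM in each NOS2KO library to the parental library for the 13 protein-coding genes with at least 10 counts within 1 Mb of the cluster, by distance (kb) of the gene's left end from that of CXCL8. The 4 chemokines, EREG and AREG lie below -1 in all 3 libraries, AFP lies above 2, and COX18 and ANKRD17 lie near 0.

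Receptors for these ligands were scarce in every library. CXCR1 had 0 counts in all 4 libraries, and CXCR2 had 16 counts (0.150 CPM) in the library labelled clone 5 and 0 in the rest. ACKR1, a decoy receptor that binds chemokines without signalling, had 1.15 CPM in the parental library, 2.75 CPM in NOS2KO clone 1, 0.319 CPM in the library labelled clone 5 and 0.314 CPM in NOS2KO clone 6. The other ELR chemokine of the cluster, PPBP, and the platelet chemokines PF4 and PF4V1 had at most 1 count anywhere. CXCL12, a CXC chemokine without the ELR motif that signals through CXCR4, was higher instead, with 31.5 CPM in parental cells, 205 CPM in NOS2KO clone 1, 768 CPM in the library labelled clone 5 and 1168 CPM in NOS2KO clone 6. Its log2 fold change was 4.50 (unadjusted p = 0.0174, adjusted p = 0.350 by edgeR, DESeq2's adjusted p = 0.000181).

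Among 15 inducers of these chemokines and their receptors, 14 were tested, and 3 met an unadjusted edgeR p under 0.05 with a log2 fold change beyond 1, all lower: IL1A, IL1B and IL1RAP. DESeq2 called IL1A and IL1B lower at an adjusted p under 0.05. These counts stand beside 5.34% of all genes for edgeR and 2.19% for DESeq2. The 14 genes had a median log2 fold change of 0.28, beside 0.10 for all genes. This list and the gene lists that follow were written with earlier results of these data known, so their counts are descriptions. IL1A, the cell-associated form of interleukin-1, had log2 ratios of -4.70, -7.80 and -7.82 in NOS2KO clone 1, the library labelled clone 5 and clone 6, and IL1B had -3.63, -5.95 and -5.20. IL1R1, the signalling receptor for both, had 157 CPM in the parental library and 87.8, 173 and 260 CPM in the same NOS2KO libraries, so it was lower in NOS2KO clone 1 only. IL1RAP, its co-receptor, had 122 CPM in the parental library and 69.9, 59.2 and 44.9 CPM in the others. TNF stayed at or under 0.140 CPM in every library. TLR3, TLR4 and IL17RA were present, at 11.5 to 54.7 CPM, and TLR4 was higher in each NOS2KO library. MYD88 had 24.3 CPM in the parental library and 42.6, 41.0 and 52.6 CPM in the others. TNFRSF1A had 231 CPM and then 301, 335 and 466 CPM. Lower in each NOS2KO library were IRAK1, with 558 CPM and then 509, 248 and 212 CPM, and OSMR, with 434 CPM and then 261, 274 and 293 CPM.

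Transcription factors that act at chemokine promoters, and the NF-kappaB inhibitor NFKBIA, made up a list of 16 genes, all tested. Of these, 6 were lower and 1 higher by the unadjusted edgeR criterion, beside 5.34% and 4.24% of all genes. DESeq2 called 4 lower and 2 higher, beside 2.19% of all genes in each direction. By log2 ratio beyond 1 in each NOS2KO library, 5 were lower and 2 higher, beside 5.93% and 5.39% of genes that reached 1 CPM. The median log2 fold change was -1.02.

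The 6 genes that were lower by the unadjusted criterion were NFKB1, NFKB2, RELB, NFKBIA and NFKBIZ of the NF-kappaB system and CEBPB. NFKB1, which gives the p50 subunit, had 167 CPM in the parental library and 78.9, 61.0 and 65.8 CPM in NOS2KO clone 1, the library labelled clone 5 and clone 6 (edgeR log2 fold change -1.28, unadjusted p = 0.00629, adjusted p = 0.327, DESeq2 adjusted p = 0.0421). RELB, a partner of p52, had 71.3 CPM against 26.2, 9.16 and 13.3 CPM. NFKBIA, the inhibitor IkappaB-alpha and itself a target of NF-kappaB, had 167 CPM against 63.9, 41.1 and 44.3 CPM. NFKBIZ, a nuclear IkappaB protein, had 56.6 CPM against 12.4, 16.4 and 6.73 CPM. CEBPB was 663 CPM in the parental library and 137, 134 and 107 CPM in the NOS2KO libraries, with close values in the clones (edgeR log2 fold change -2.39, unadjusted p = 0.000510, adjusted p = 0.259, DESeq2 adjusted p = 8.94e-07).

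RELA, the p65 subunit, differed less, with log2 ratios of -0.20, -0.58 and -0.78. NFKB2, the p52 precursor and counted above among the lower genes, had log2 ratios of -0.88, -2.005 and -1.94 (edgeR log2 fold change -1.51, unadjusted p = 0.0340). The AP-1 genes JUN and FOS were higher in all 3 NOS2KO libraries (edgeR unadjusted p = 0.0176 and 0.0614, DESeq2 adjusted p = 0.0382 and 0.0233). JUN had 108 CPM in the parental library and 398, 234 and 328 CPM in NOS2KO clone 1, the library labelled clone 5 and clone 6, and FOS had 36.5 CPM and then 1094, 102 and 390 CPM. EGR1 had 65.0 CPM in the parental library and 1169, 95.3 and 360 CPM in the same NOS2KO libraries. Clone 1, the NOS2KO library with the most CXCL8, had the most FOS, JUN and EGR1. The other libraries did not follow that order. The parental library had the most CXCL8 and the least of FOS, JUN and EGR1. Clone 6 had less CXCL8 than the library labelled clone 5 but more FOS, JUN and EGR1. ATF3 had 40.5 CPM in the parental library and 20.5, 6.56 and 2.11 CPM in the others, and FOSL1 had 70.5 CPM and then 51.1, 24.6 and 10.9 CPM. In the same order of NOS2KO libraries, CEBPD had log2 ratios of -1.24, -0.46 and -0.67 and REL -0.42, -0.60 and -0.48. JUNB had log2 ratios of 0.97, 0.06 and 0.41 and JUND 0.49, -0.0095 and -0.47.

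Genes whose promoter window held GGAATTTCC were counted as a description. Of 153 such genes, 73 were tested, the 4 chemokines among them. Without any of the 6 chemokines, 69 were tested, with a median log2 fold change of -0.15, and 8.70% were lower by the unadjusted edgeR criterion with a log2 fold change below -1 and 2.90% higher. Over the 12995 tested genes with any promoter window these values were 0.04, 5.91% and 4.68%.

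Of 9 genes for mRNA decay and stability, all tested, 1 was lower by the unadjusted edgeR criterion and by DESeq2, beside 5.34% and 2.19% of all genes, and the median log2 fold change was -0.03. ZC3H12A, an RNase that cuts mRNAs of inflammatory genes, had 188 CPM in the parental library and 34.3, 47.2 and 23.6 CPM in NOS2KO clone 1, the library labelled clone 5 and clone 6. ZFP36, which speeds decay of AU-rich mRNAs such as those of chemokines, had 12.9 CPM and then 122, 21.5 and 48.3 CPM (edgeR unadjusted p = 0.0952, adjusted p = 0.497). ELAVL1, KHSRP and MAPKAPK2 had log2 ratios between -0.48 and 0.36.

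Other factors that act on neutrophils or in the same inflammatory setting formed a list of 10 genes, all tested, of which 7 were lower by the unadjusted edgeR criterion and 5 by DESeq2, beside 5.34% and 2.19% of all genes. The median log2 fold change was -3.19, beside 0.10 over all genes. Because the list was written with earlier results of these data known, these values describe its genes and test nothing. CSF3, which encodes the neutrophil growth factor G-CSF, had 1455 counts in the parental library and 3, 1 and 1 in NOS2KO clone 1, the library labelled clone 5 and clone 6. The log2 ratios, from counts at or under the floor in the clones, were -9.27 (interval -11.5 to -7.72), -10.7 (-16.0 to -8.26) and -10.6 (-15.9 to -8.15). IL6 had 220 CPM against 23.0, 11.6 and 5.51 CPM, and LIF, a cytokine of the same family, had 52.2 CPM against 3.33, 1.00 and 2.43 CPM. LCN2, lipocalin-2, had 1783 counts against 29, 2 and 2. PTGS2, the prostaglandin-forming enzyme COX-2, had 15.9 CPM against 6.05, 1.74 and 1.61 CPM. C3, complement component 3, had 2543 CPM against 921, 480 and 770 CPM. CCL20, the remaining gene called lower by edgeR, had 42 counts against 4, 1 and 1. CSF2, which encodes GM-CSF, stood close to its parental level, with 1.02 CPM in the parental library and 0.959, 0.816 and 1.01 CPM in the others. S100A8 and S100A9, also on this list, were not called. In the same order of NOS2KO libraries their log2 ratios were 2.02, -3.84 and -0.59 for S100A8 and 0.04, -5.52 and -2.86 for S100A9.

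**Figure D5:**
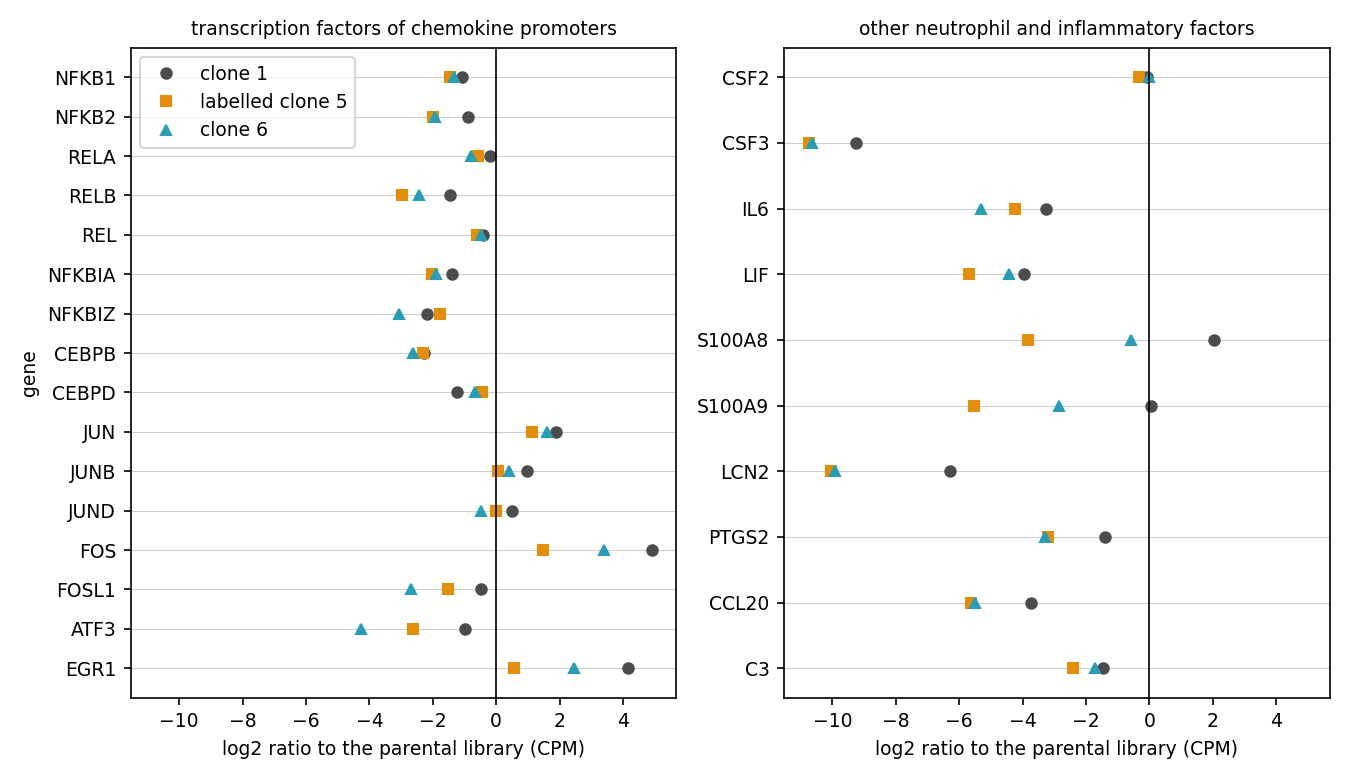
log2 ratio of CPM in each NOS2KO library to the parental library for the list of 16 transcription factors, the inhibitor NFKBIA included (left), and 10 other neutrophil or inflammatory factors (right), 1 symbol per library. NFKB1, RELB, NFKBIA, NFKBIZ and CEBPB lie below -1 in all 3 libraries, JUN and FOS above 1, CSF3 and LCN2 furthest to the left, and CSF2 near 0.

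The genes whose pattern over the 4 libraries was most like that of CXCL8 were sought among 10708 genes that reached 10 CPM in some library. The measure was the Euclidean distance between centred log2 CPM values with a prior count of 0.5, so it rests on 4 libraries. The nearest were SAA2 (distance 0.761) and SAA1 (1.08), acute-phase serum amyloid A genes similar enough in sequence that the split of reads between them is uncertain. Then came the arginine transporter gene SLC7A2 (1.56), IL1A (1.59), LINC02154 (1.63), COL17A1 (1.65), KRT75 (1.73), XDH (1.78), AREG (1.91) and RELN (1.94). SAA1 had 65.6 CPM in the parental library, 20.8 CPM in NOS2KO clone 1, 1.87 CPM in the library labelled clone 5 and 0.700 CPM in NOS2KO clone 6. CXCL2 was at place 14 of the list (2.33) and CXCL3 at place 29 (2.93). CXCL1, with at most 8.95 CPM, was under the limit of 10 CPM and could not enter.

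Markers of other cell types were read beside these values. The summed level of 8 neutrophil genes was 6.42 CPM in the parental library and 69.1, 107 and 44.5 CPM in NOS2KO clone 1, the library labelled clone 5 and clone 6. Most of it was PTPRC, the leukocyte phosphatase CD45, with 4.45 CPM in the parental library and 68.4, 105 and 41.7 CPM in the others (edgeR log2 fold change 4.01, unadjusted p = 0.00305, adjusted p = 0.282, DESeq2 adjusted p = 4.13e-07). The neutrophil granule marker CEACAM8 had 0 counts in all libraries, and ELANE, FCGR3B, CSF3R, MPO, AZU1 and ITGAM were each at or below 2.31 CPM. The sum of 5 macrophage genes was 13.4 CPM in the parental library and 3.06, 5.69 and 12.2 CPM in the others. It was mostly CD14, none of the 5 was at 0, and the median log2 fold change was 0.62. MRC1 went the other way from the sum, with 8 counts in the parental library and 63, 31 and 52 in the others. By edgeR's unadjusted criterion 1 of the 5 was higher, MRC1, and 0 lower, beside 4.24% and 5.34% of all genes. The sum of 4 endothelial genes was 16.4 CPM and then 15.0, 14.7 and 11.0 CPM, with members of it going opposite ways and none called by edgeR's unadjusted criterion or by DESeq2 (median log2 fold change 3.59). PECAM1, an endothelial adhesion protein, had 16.1 CPM in the parental library and 13.9, 7.06 and 8.64 CPM in the others. CDH5, the cadherin of endothelial junctions, had 1 count in the parental library and 12, 372 and 16 counts in the others, and VWF, von Willebrand factor, had 19 and then 32, 405 and 212. KDR, a VEGF receptor, had 2 counts and then 80, 33 and 2. The part of these genes in the chemokine values was not tested.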

How the data were processed

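RNA-seq of 4 SUM159 libraries (1 parental and 3 NOS2KO clones) was analysed. The authors deposited raw counts per gene on GRCh38, without normalization. The submitters' processing notes name bcl2fastq 2.17, Trimmomatic 0.36, STAR 2.5.2b, featureCounts of Subread 1.5.2 and DESeq2, and the strand setting, treatment of reads with several matches and annotation release are not given in the sources used here. Of 57500 identifiers, 56898 had a symbol in GENCODE release 29 and 54784 the same coordinates, which are those printed.

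Counts were filtered by filterByExpr by condition (22511 genes kept), scaled by TMM and tested in R 4.3.3 with edgeR 4.0.16 (glmQLFit, glmQLFTest, Benjamini-Hochberg adjustment), with DESeq2 1.42.0 as an alternative. With 1 parental library, only the clones informed the spread (2 residual degrees of freedom, 2.75 prior), and parental cells were taken to vary alike. Nothing says whether a clone was cultured more than once, so p-values measure the spread between these libraries. Ratios between libraries or genes carry exact Clopper-Pearson 95% intervals. No ratio is given where both groups are at or under 3 counts. The fit and the intervals were run on simulated data as a check of the code. Rates of missed and false calls are not given here. Python 3.11.15, scipy 1.17.1 and Biopython 1.88 (global alignment) were used.

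The members, lists and thresholds were chosen with earlier results of these data known. Named genes are the 6 chemokines, NOS2, the receptors, the transcription factors and most of the inducers. List genes are named that reached 1 CPM and differed by more than 1 log2 unit in the same direction in each clone. Protein-coding genes with at least 10 counts within 1 Mb of the cluster and the 10 genes nearest to CXCL8 are named too. Other genes named from the lists were chosen after their values were seen. Protein sequences were not used here, and coding letters of GENCODE transcripts took the place of the planned protein comparison. Alternatives were scaling by RLE, by the upper quartile or by library size, other filters, other edgeR settings, DESeq2, each clone left out, CPM without length, motifs on 1 strand and, added after seeing the data, the length of the principal transcript.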

Additional observations from a re-analysis of the deposited data

How the results depend on the processing

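No alternative reversed the direction of CXCL1, CXCL2, CXCL3 or CXCL8. With DESeq2 the log2 fold changes of CXCL1 (-4.47) and CXCL3 (-3.84) passed an adjusted p of 0.05, which gave 2 chemokines instead of 0, and 986 genes in all instead of 1. Without the filter on low counts, 4 chemokines instead of 2 met the unadjusted criterion (p under 0.05, log2 fold change beyond 1), and 6 genes in all passed an adjusted p of 0.05. The bias-adjusted quasi-likelihood test called 5 genes in all. Leaving out each NOS2KO clone in turn gave log2 fold changes of -4.58 to -4.34 for CXCL1, -4.33 to -2.29 for CXCL2, -4.42 to -3.57 for CXCL3 and -6.92 to -3.47 for CXCL8, a median of -4.47 to -3.53, 0 to 0 chemokines with an adjusted p under 0.05, 2 to 4 by the unadjusted criterion and 0 to 0 genes in all. The high end of that criterion and the lowest fold changes of CXCL2, CXCL3 and CXCL8 came without clone 1. How many of all genes met that criterion without the filter, or with a clone left out, is not given here. Between scalings the log2 ratios moved by -0.09 to 0.13, and the median of all genes lay between 0.10 and 0.20. Without division by length, the log2 ratio of CXCL8 to CXCL2 was 0.98 in parental cells, -0.05 in NOS2KO clone 1, -1.10 in the library with the clone 5 label and -2.15 in NOS2KO clone 6. Per length of the principal transcript, chosen after seeing the data, the log2 ratio of CXCL8 to CXCL3 in the library with the clone 5 label reversed, from 0.46 to -0.17. No paired analysis was possible because the parental group has 1 library. Levels of CXCL1 in the clones rest on 31 to 49 counts, and CXCL5 and CXCL6 cannot be compared at this depth.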

Other observations

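Other CXC chemokines differed between the NOS2KO libraries in ways that no group of samples covers. CXCL10 and CXCL11, which attract T cells through CXCR3, had 2.42 and 6.68 CPM in the parental library, 2.46 and 10.2 CPM in NOS2KO clone 1, 0.638 and 1.76 CPM in the library labelled clone 5 and 0.112 and 0.416 CPM in NOS2KO clone 6. CXCL13, a chemokine for B cells, had 0.465 CPM in the parental library, 0.689 CPM in NOS2KO clone 1, 2.08 CPM in the library labelled clone 5 and 16.3 CPM in NOS2KO clone 6. CXCL14 had 0.332 CPM in the parental library and 1.17, 26.5 and 0.710 CPM in the others, so 1 library held nearly all of it. CXCL16 stayed between 13.2 and 19.7 CPM.

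S100A8 and S100A9, which form calprotectin, had 6.06 and 21.5 CPM in the parental library, 24.6 and 22.2 CPM in NOS2KO clone 1, 0.422 and 0.469 CPM in the library labelled clone 5 and 4.04 and 2.97 CPM in NOS2KO clone 6. Of 10 genes for cleavage or binding of these chemokines, 8 were tested. None met an unadjusted edgeR p under 0.05 with a log2 fold change beyond 1, beside 5.34% of all genes lower and 4.24% higher. DESeq2 called none, beside 2.19% of all genes in each direction. SDC1 and SDC4 had log2 fold changes of -0.89 and -0.94 by edgeR. DPP4, a peptidase that trims chemokines, had 0.553 CPM in the parental library and 1.16, 3.45 and 5.33 CPM in NOS2KO clone 1, the library labelled clone 5 and clone 6. MMP2 had 701 CPM in the parental library and 586, 2474 and 1523 CPM in the same order. These genes were named after their values were seen.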
